A study of Mus musculus with 6 samples.

Results

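Integrins and laminins were followed in mammary glands of female bitransgenic mice at 10 and at 5 weeks of age. The genes were taken by name: every probe set with a single annotated symbol for an integrin alpha or beta chain (Itga, Itgb) or a laminin alpha, beta or gamma chain (Lama, Lamb, Lamc), with the brightest probe set standing for the gene. This gave 35 genes of 18193, 25 of them integrin chains and 10 laminin chains, carried by 76 probe sets. Of the 35, 34 passed the filter on dim probe sets, and Itgb2l, a beta2-like chain, did not. The chains Lamb4, Itga11 and Itgad were not analysed here.

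The mice came from crossing the LH mouse, so named in the labels, with the MMTV-neu mouse, in which a mammary tumour virus promoter drives the neu (Erbb2) oncogene mainly in mammary epithelium. Both ages carry both transgenes, and the comparison holds no mice without them, so the effect of age and that of transgene exposure cannot be told apart. Pooled whole-gland RNA of 3 animals went on each array, with 3 such pools and so 9 animals for either age. The values are linear signal intensities. A pair of pools stood apart in other tissues' markers: 10-week pool 1 had the lowest skeletal muscle markers of all 6, and 5-week pool 2 the highest B and T cell markers. With both left out, a check chosen after seeing the data, 6 integrin or laminin chains were called higher and 9 lower.

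Integrins are receptors of 1 alpha and 1 beta chain that tie the cell's actin or keratin cytoskeleton to the matrix outside or to other cells. Laminins are trimers of an alpha, a beta and a gamma chain, and they form the sheet of the basement membrane together with collagen IV, nidogen and perlecan. In the mammary gland this sheet surrounds the ducts and alveoli, and adhesion to laminin through integrins is known to be needed for milk protein expression, while fat cells, vessels, nerves and muscle have laminin sheets of their own.

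Among the 34 tested chains, 7 rose and 11 fell at 10 weeks (limma, Benjamini-Hochberg adjusted p under 0.05), which is 52.9% of the chains against a background of 34.1% of all 13002 genes tested. The rises were 20.6% of the chains against a background of 15.3%, and the falls 32.4% against 18.7%. In 9 chains the call came with a log2 difference of at least 1, which is 26.5% of the chains against 10.4% of all genes. The 3 pools of each age did not overlap for 21 of 34 chains, or 61.8%, against 50.3% of all genes. Signals below are linear, and differences are of log2(signal + 32), 10 weeks minus 5 weeks, with the SE of the fit. The median over all chains was 0.09, and over all genes tested -0.00.

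The integrin chains went both ways. Of 24 tested, 6 rose, 5 fell and 13 were not called, with a median of 0.14. The laminin chains mostly fell. Of 10 tested, 6 fell, 1 rose and 3 were not called, with a median of -0.54. The chain with the largest rise was a laminin, Lamb3 (1.93), and the one with the largest fall an integrin, Itgb3 (-1.74).

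**Figure D1:**
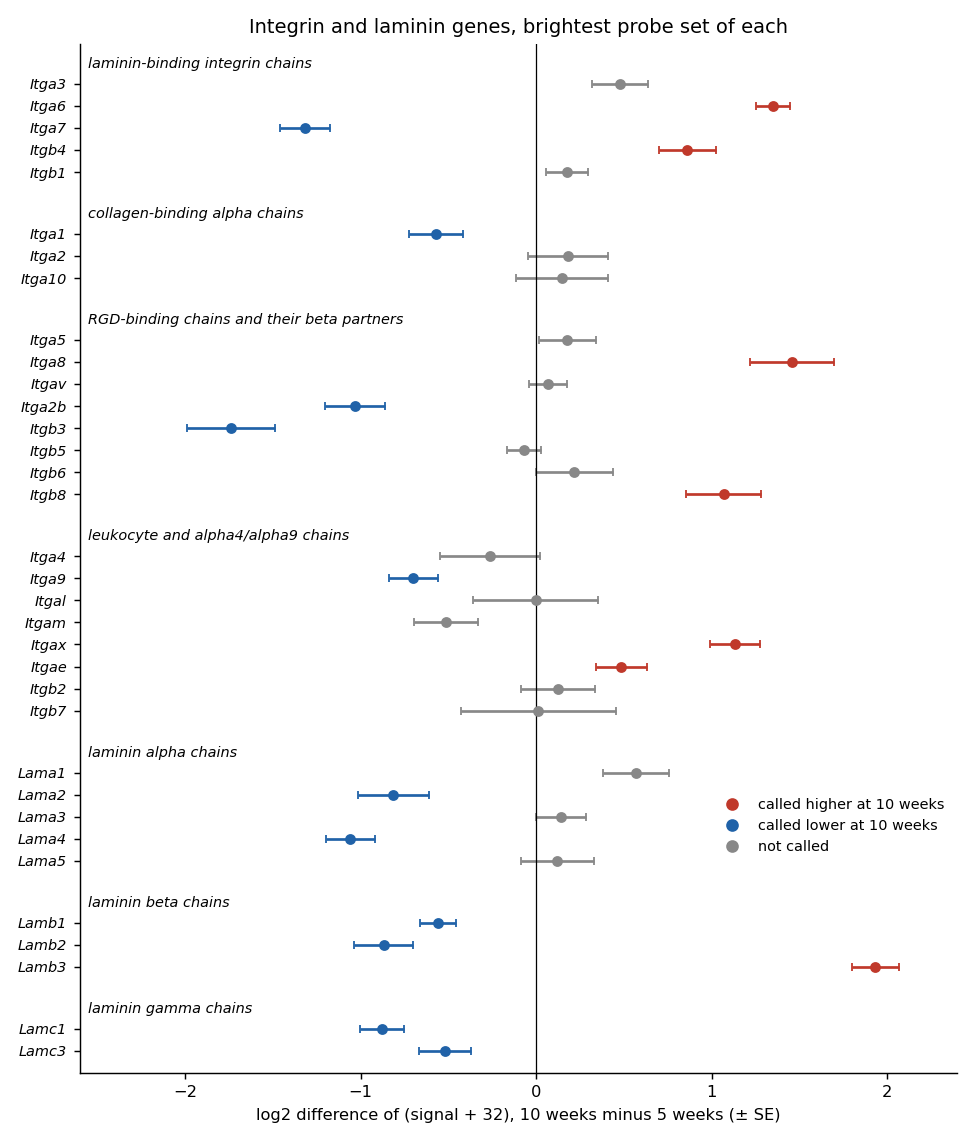
Log2 difference between 10 and 5 weeks (x axis, log2 of signal + 32, ± SE) for the 34 tested integrin and laminin chains, grouped by role, with 3 pools per age. Red chains were called higher and blue chains lower at 10 weeks. Itga6, Itga8, Itgb8, Itgax and Lamb3 lie beyond 1, and Itga7, Itga2b, Itgb3 and Lama4 lie below -1.

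The bases before the transcription start are shown for 4 chains, because they form 2 sets of relatives that changed differently. Lamb3 and Lamb1 are laminin beta chains, of which the first rose and the second fell. Itgax and Itgam are adjacent leukocyte alpha chain genes on chromosome 7 with no protein-coding gene between them, and only Itgax was called. Each run is the 250 bases before the start, 5′ to 3′ on the gene's strand, from RefSeq on GRCm38.p6, for Lamb3 the upstream of its 2 listed starts. Capitals mark matches on either strand to TGANTCA (AP-1), TTCNNNGAA (STAT), GGGCGG (GC box), CCAAT or TATAAA.
Lamb3, chr1:193301744-193301993, plus strand: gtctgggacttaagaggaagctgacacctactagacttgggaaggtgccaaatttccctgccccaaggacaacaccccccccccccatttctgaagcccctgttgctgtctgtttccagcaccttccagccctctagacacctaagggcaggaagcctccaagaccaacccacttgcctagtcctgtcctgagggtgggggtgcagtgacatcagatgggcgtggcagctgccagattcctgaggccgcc
Lamb1, chr12:31265043-31265292, plus strand: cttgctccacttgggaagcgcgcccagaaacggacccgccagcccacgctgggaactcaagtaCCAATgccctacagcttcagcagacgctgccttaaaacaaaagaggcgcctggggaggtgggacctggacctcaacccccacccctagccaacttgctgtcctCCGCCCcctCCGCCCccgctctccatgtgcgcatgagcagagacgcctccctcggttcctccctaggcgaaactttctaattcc
Itgax, chr7:128129300-128129549, plus strand: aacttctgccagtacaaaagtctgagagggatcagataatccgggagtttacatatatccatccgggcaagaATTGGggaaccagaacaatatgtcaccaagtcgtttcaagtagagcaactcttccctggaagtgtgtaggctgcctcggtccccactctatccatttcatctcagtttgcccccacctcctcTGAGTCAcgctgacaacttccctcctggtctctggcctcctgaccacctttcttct
Itgam, chr7:128062390-128062639, plus strand: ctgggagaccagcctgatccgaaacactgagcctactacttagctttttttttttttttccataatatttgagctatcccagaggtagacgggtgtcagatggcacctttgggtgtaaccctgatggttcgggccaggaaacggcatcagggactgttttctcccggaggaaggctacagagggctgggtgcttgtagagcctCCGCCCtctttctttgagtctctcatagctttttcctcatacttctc
None of the 5 letter strings occurs in the Lamb3 window. The Lamb1 window holds 2 GC boxes and 1 CCAAT, the Itgax window 1 AP-1 string and 1 CCAAT, and the Itgam window 1 GC box, and no matches overlap. Of the 35 genes, 23 have a listed start, with 26 windows in all. AP-1 strings occur in 1 of these 26 windows and in 6.75% of all 32851 windows, STAT strings in 2 and in 7.02%, GC boxes in 9 and in 32.7%, CCAAT in 4 and in 33.8%, and TATAAA in 0 and in 12.4%. A match is a string of letters in this window and was not tested as a binding site.

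Among the laminins, the beta chains differed most from each other. Lamb3 encodes the beta chain of the epithelial laminin that anchors hemidesmosomes. Its signal was 3020.6, 2925.6 and 2781.3 in the 10-week pools, against 907.2, 651.6 and 679.1 in the 5-week pools. Every 10-week pool lay far above every 5-week pool, and the log2 difference was 1.93 ± 0.14 (adjusted p = 5.08e-05). In whole-gland RNA, more cells of a type and more RNA per cell cannot be told apart. Lamb1, the beta chain of most laminins outside hemidesmosomes, had 1457.2, 1663.9 and 1672.2 at 10 weeks, against 2406.3, 2233.8 and 2462.8 at 5 weeks. It fell by 0.56 ± 0.10 on its brightest probe set (adjusted p = 0.0039). Lamb2, known from the laminins of synapses and kidney glomeruli, fell by 0.87 ± 0.17 (adjusted p = 0.00561), with 426.6, 462.9 and 587.4 at 10 weeks, against 1125.3, 790.5 and 867.3 at 5 weeks. Neither falling chain overlapped between the ages.

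Within each array, the change of Lamb3 minus that of Lamb1 was 2.49 ± 0.16, with separate ages. This is 1 of 20 differences between named chains that were compared in this way. With 3 pools against 3 an exact two-sided permutation test cannot go below p = 0.1, which Lamb3 minus Lamb1 reached (p = 0.125 when adjusted over the 20). Of the 20 differences, 16 had separate ages. Single genes had separate ages in 50.3% of all genes tested, but no such share was computed for pairs of genes. The pairs were picked by hand, and all but Itgb5 minus Itgav hold a called chain. The count is therefore no measure of how unequally partner chains change.

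Laminin gamma chains fell. Lamc1, the gamma chain shared by most laminins, had 2360.6, 3087.6 and 2735.9 at 10 weeks, against 4982.5, 4535.7 and 5572.5 at 5 weeks, a log2 difference of -0.88 ± 0.12 (adjusted p = 0.00111). All 10-week pools lay below all 5-week pools. Lamc3 had 221.7, 244.6 and 211.0 at 10 weeks, against 322.4, 313.8 and 378.0 at 5 weeks, a difference of -0.52 ± 0.15 (adjusted p = 0.0279). Its ages were also separate, but leaving out a single pool could undo the call, which had an adjusted p of 0.0767 without 10-week pool 1, 0.0823 without 10-week pool 3, 0.0575 without 5-week pool 1 and 0.0796 without 5-week pool 3.

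Of the 5 laminin alpha chains, which carry the binding sites for cells, 2 fell and 3 were not called. Lama4, the alpha chain of vessel and fat cell basement membranes, had 857.8, 1155.7 and 1116.7 at 10 weeks, against 2118.1, 2010.1 and 2458.5 at 5 weeks. Its 10-week pools all lay below its 5-week pools, with a log2 difference of -1.06 ± 0.14 (adjusted p = 0.000807). Lama2, the alpha chain of muscle and nerve, whose loss causes muscular dystrophy, had 814.5, 1352.1 and 1162.8 at 10 weeks, against 2163.2, 1534.4 and 2179.8 at 5 weeks. The ages stood apart, with pool 1 lowest at 10 weeks and pool 2 lowest at 5 weeks, and the difference was -0.81 ± 0.20. Leaving out 5-week pool 1 (adjusted p = 0.0543) or 5-week pool 3 (0.056) undid that call.

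The other alpha chains were not called. Lama3, the alpha partner of Lamb3, had 501.0, 505.0 and 525.5 at 10 weeks, against 422.8, 417.6 and 551.1 at 5 weeks, with overlapping ages and a difference of 0.14 ± 0.14 (adjusted p = 0.5). Lamb3 minus Lama3 was 1.79 ± 0.23 within arrays, with separate ages (exact p = 0.1, the smallest possible, and 0.125 adjusted over the 20). Lama5, the broad alpha chain of adult epithelia and vessels, had 1610.9, 841.4 and 1249.0 at 10 weeks, against 1097.8, 1176.2 and 1014.3 at 5 weeks. Its ages overlapped, with a difference of 0.12 ± 0.21. Lama1, a chain best known from embryonic epithelia, had 845.4, 754.9 and 764.1 at 10 weeks, against 522.3, 388.0 and 689.7 at 5 weeks, so that all 10-week pools were higher. Its difference of 0.57 ± 0.19 just missed the threshold (adjusted p = 0.051) and passed it under 6 of the alternative settings. It was 0.76 without 5-week pool 3, where it was called (adjusted p = 0.0124), 0.37 without 5-week pool 2 (0.125), and 0.32 without both 10-week pool 1 and 5-week pool 2 (0.254).

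**Figure D2:**
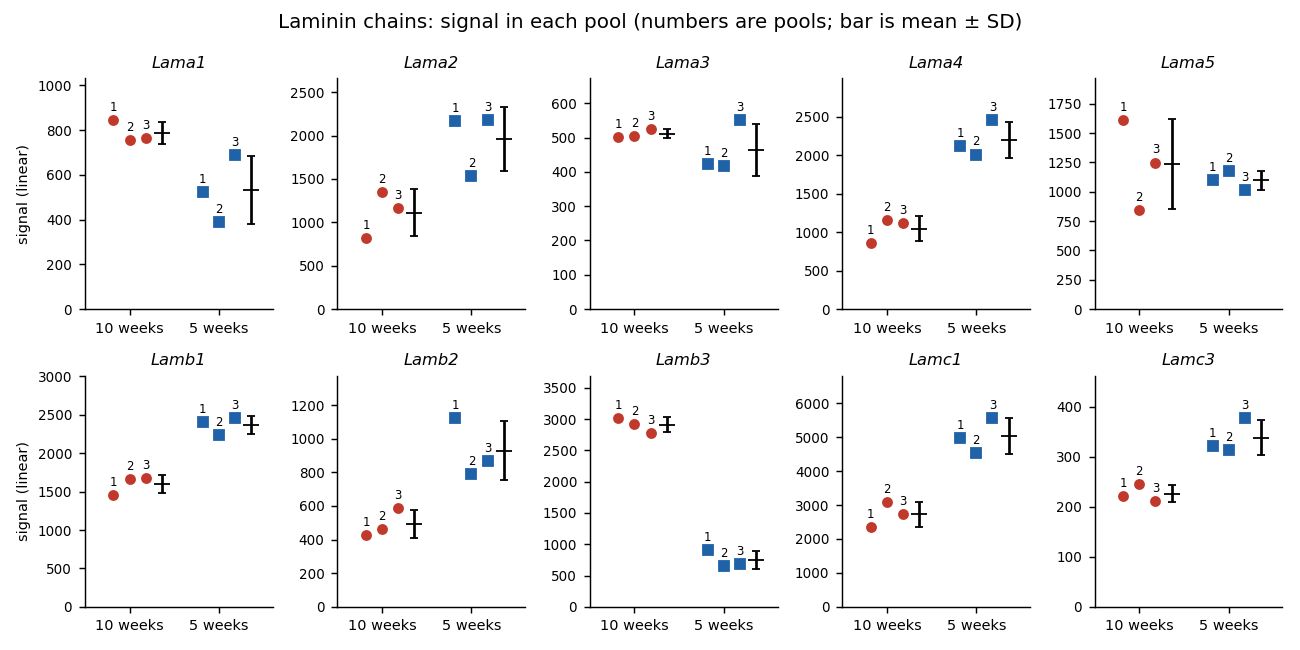
Signal (y axis, linear intensity) of the 10 laminin chains in each pool, 10 weeks in red and 5 weeks in blue, with pool numbers and mean ± SD (n = 3). The 10-week pools of Lamb3 lie between 2781.3 and 3020.6, above all 5-week pools, while Lama2, Lama4, Lamb1, Lamb2, Lamc1 and Lamc3 lie below.

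Markers of the tissues that use these laminins moved as well, beside a background of 18.7% of all genes called lower and 15.3% called higher. Fibroblast markers fell in 6 of 6 cases, with a summed signal of 36220 to 41669 at 10 weeks, against 60644 to 72172 at 5 weeks. Of 7 endothelial markers, 5 fell, and their sum was 5952 to 6991 at 10 weeks, against 8231 to 9469 at 5 weeks. Of 5 pericyte markers 3 fell, of 4 adipocyte markers 2 fell, and of 3 Schwann cell markers 2 fell and 1, Sox10, rose. The pericyte marker Des was lowest in 10-week pool 1 (123.0), the pool also lowest in skeletal muscle markers. Of 8 skeletal muscle markers, 3 fell, with a sum of 5443 to 40160 at 10 weeks, lowest in pool 1, against 49018 to 89534 at 5 weeks. Without 10-week pool 1, Lama2 differed by -0.61, Lama4 by -0.93 and Lamc1 by -0.78, and all 3 stayed called. The muscle sums of 10-week pools 2 and 3 (40160 and 37543) still lay below those of all 5-week pools, so this leaves the muscle difference in place. Of 7 luminal epithelial markers, 5 rose and none fell, with a sum of 48322 to 55855 at 10 weeks, against 27557 to 34611 at 5 weeks. All 7, keratins Krt8, Krt18 and Krt19 among them, passed the filter on dim probe sets. Of 8 basal and myoepithelial markers, 4 rose and 2 fell, with a sum of 22121 to 23453 at 10 weeks, against 18301 to 19485 at 5 weeks. The part that these cell types have in the changes of the laminin and integrin chains was not tested.

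Among the laminin receptors, the chains of the hemidesmosome rose. Itga6, the alpha6 chain, pairs with beta4 in hemidesmosomes and with beta1 elsewhere. It had 9186.3, 7906.5 and 7961.9 at 10 weeks, against 3496.4, 3057.7 and 3210.3 at 5 weeks, a log2 difference of 1.35 ± 0.10 (adjusted p = 5.89e-05). The 2 ages were far apart, and its other probe set gave 1.40. Itgb4, the beta4 chain, whose long tail binds the keratin network through plectin, had 786.8, 764.2 and 550.9 at 10 weeks, against 329.9, 398.6 and 374.4 at 5 weeks. All 10-week pools were higher, with a difference of 0.86 ± 0.16 (adjusted p = 0.00478). Itgb1, the beta1 chain common to most integrins, had 5464.3, 4404.6 and 4366.7 at 10 weeks, against 4654.5, 4111.1 and 3812.7 at 5 weeks. Its ages overlapped, and the difference was 0.17 ± 0.12 (adjusted p = 0.312).

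In these pools the change of Itga6 exceeded that of either beta partner, with a p that the design cannot take below the threshold. Itga6 minus Itgb1 was 1.18 ± 0.07 and Itga6 minus Itgb4 was 0.49 ± 0.19 within arrays, both with separate ages (exact p = 0.1 each, 0.125 adjusted over the 20). Itga3, the alpha3 chain of another epithelial laminin receptor, had 1936.2, 1550.7 and 1222.7 at 10 weeks, against 1159.5, 1027.1 and 1116.3 at 5 weeks. All 10-week pools were higher, but the difference of 0.48 ± 0.16 was not called (adjusted p = 0.0536). Its value hung on single pools: 0.64 without 10-week pool 3, where it was called (adjusted p = 0.015), 0.32 without 10-week pool 1 (0.154), and 0.27 without both 10-week pool 1 and 5-week pool 2 (0.282).

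Itga7, the alpha7 chain of the main laminin receptor of skeletal muscle, fell by 1.32 ± 0.14 on the log2 scale (adjusted p = 0.000337). Its signal was 218.7, 248.9 and 242.1 at 10 weeks, against 595.1, 583.2 and 739.9 at 5 weeks. The ages did not overlap. Muscle markers summed to 5443 in 10-week pool 1, to 40160 and 37543 in pools 2 and 3, and to 49018 to 89534 at 5 weeks. Without 10-week pool 1 the difference was -1.27 (adjusted p = 0.00182), with the muscle markers of the remaining 10-week pools still below those of all 5-week pools. The part of muscle in the fall of Itga7 was not tested.

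Of the collagen-binding alpha chains, Itga1 fell and the others were not called. Itga1, which binds collagen IV and is used by vessel and stromal cells, had 151.3, 192.3 and 160.9 at 10 weeks, against 252.7, 280.7 and 259.9 at 5 weeks, with no overlap. Its difference of -0.57 ± 0.16 (adjusted p = 0.0239) was a narrow call. The adjusted p passed 0.05 when 10-week pool 1 (0.08) or 3 (0.0678) or 5-week pool 1 (0.0525), 2 (0.0695) or 3 (0.0523) was left out. Itga2, its neighbour on chromosome 13 and the alpha chain of a fibrillar collagen receptor, had 132.4 to 167.4 at 10 weeks and 87.6 to 175.4 at 5 weeks (0.18 ± 0.23). Itga10 had 179.1 to 271.5 at 10 weeks and 129.8 to 260.0 at 5 weeks (0.15 ± 0.26). Both of these overlapped widely between the ages.

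The chains that bind the RGD motif of fibronectin, vitronectin and related proteins went both ways. Itga8, the alpha8 chain, binds nephronectin and is used by smooth muscle and mesenchyme. It had 3632.4, 1927.8 and 3263.3 at 10 weeks, against 1309.3, 876.4 and 905.6 at 5 weeks. The lowest 10-week pool still exceeded the highest 5-week pool, the difference was 1.46 ± 0.24 (adjusted p = 0.00241), and the other probe set also gave 1.46. Itgb8, the beta8 chain, pairs with alphav to activate latent TGF-beta. It had 1306.8, 1090.5 and 972.4 at 10 weeks, against 692.5, 365.2 and 535.7 at 5 weeks, again with no overlap and a difference of 1.07 ± 0.21 (adjusted p = 0.00628). Leaving out 5-week pool 2, the lowest, gave 0.84 (adjusted p = 0.0103).

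Itgav, the alphav chain that pairs with beta3, beta5, beta6 and beta8, had 4275.6, 3928.9 and 3627.7 at 10 weeks, against 4033.9, 3355.6 and 3901.7 at 5 weeks. The ages overlapped (0.07 ± 0.11, adjusted p = 0.673), and Itgb8 minus Itgav was 1.001 ± 0.182 within arrays, with separate ages (exact p = 0.1, 0.125 adjusted over the 20). Itgb3, the beta3 chain of vitronectin receptors and of the platelet fibrinogen receptor, fell furthest of all chains. It had 67.8, 117.3 and 118.3 at 10 weeks, against 398.2, 553.4 and 297.9 at 5 weeks, a difference of -1.74 ± 0.25 (adjusted p = 0.00126). No 10-week pool came near the 5-week range. Itga2b, the platelet alpha chain that pairs with beta3, had 294.5, 447.9 and 317.1 at 10 weeks, against 819.5, 747.3 and 668.1 at 5 weeks. It fell by 1.03 ± 0.17 (adjusted p = 0.00252), also with separate ages.

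Among platelet markers, Pf4, a platelet chemokine that some macrophages also express, fell by 0.66, with a signal of 1791.5, 1546.6 and 1841.5 at 10 weeks, against 2728.4, 2448.9 and 3083.1 at 5 weeks. Gp9 and Ppbp, the more restricted markers, were dim and did not pass the filter, with 8.4 to 25.8 and 29.8 to 89.6 at 10 weeks, against 18.3 to 25.3 and 85.7 to 126.2 at 5 weeks. Platelet content is therefore poorly measured here, and the part of platelets in the fall of Itga2b and Itgb3 was not tested. The remaining chains of the group were not called on their brightest probe sets. Itgb5, a vitronectin receptor chain, differed by -0.07 ± 0.10, Itgb6, an epithelial chain that activates TGF-beta, by 0.22 ± 0.22, and Itga5, the alpha chain of the classical fibronectin receptor, by 0.18 ± 0.16.

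**Figure D3:**
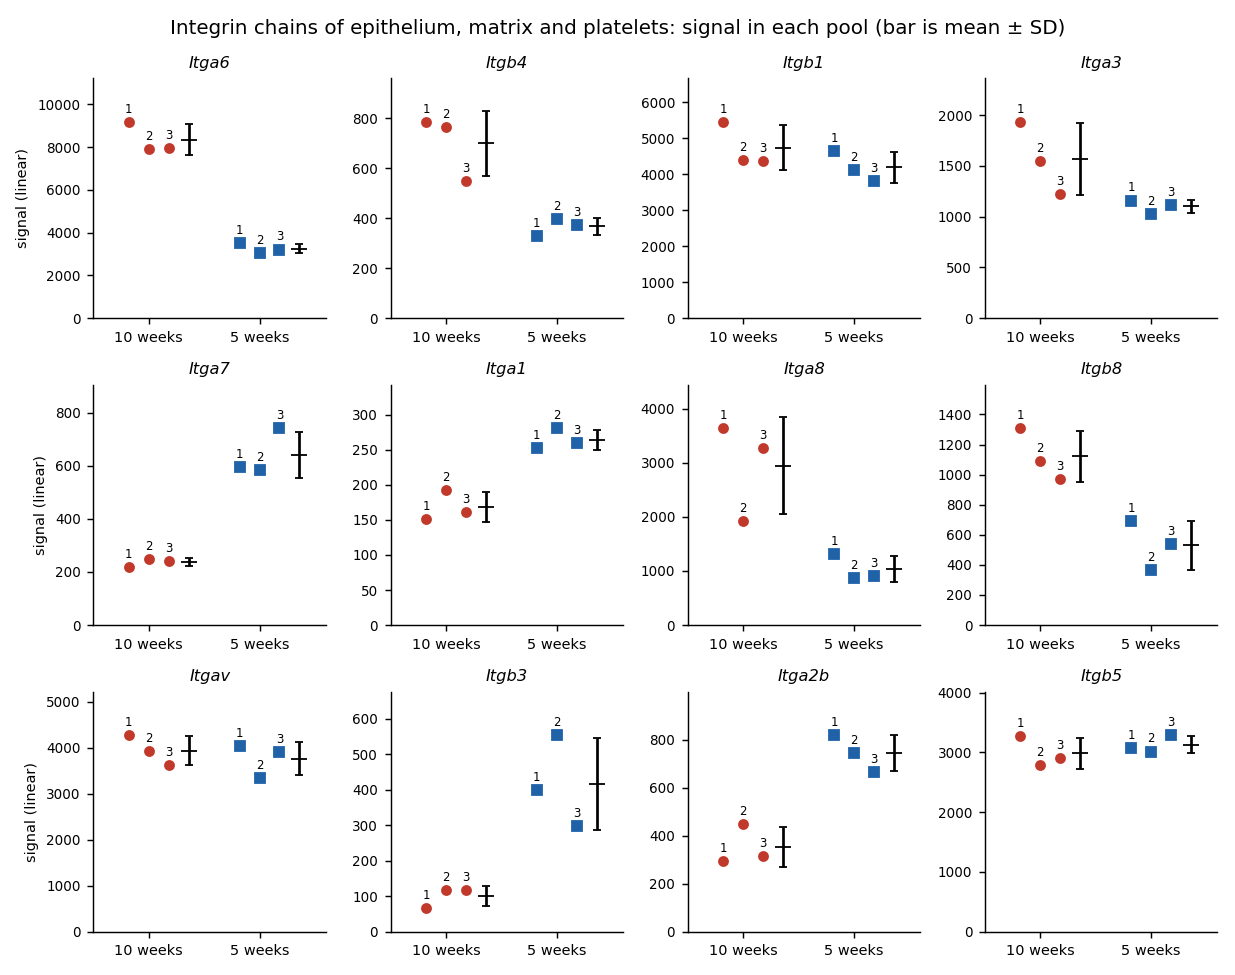
Signal (y axis, linear intensity) of 12 integrin chains in each pool, 10 weeks in red and 5 weeks in blue, with pool numbers and mean ± SD (n = 3). Itga6, Itgb4, Itga8 and Itgb8 are higher in every 10-week pool, Itga7, Itga1, Itgb3 and Itga2b are lower, and Itgb1, Itgav and Itgb5 overlap.

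Leukocyte chains showed 2 rises. Itgax, the CD11c chain of dendritic cells and some macrophages, had 664.1, 635.3 and 598.0 at 10 weeks, against 237.7, 262.1 and 316.2 at 5 weeks. The ages were well separated, with a difference of 1.14 ± 0.14 (adjusted p = 0.000634). Itgam, the CD11b chain of myeloid cells, was not called. It had 126.0, 160.9 and 134.9 at 10 weeks, against 219.2, 175.3 and 252.3 at 5 weeks (-0.51 ± 0.18, adjusted p = 0.0636), with separate ages, and it passed the threshold in 3 of the alternatives, among them that without 5-week pool 2 (-0.64, adjusted p = 0.0453). Itgax minus Itgam was 1.65 ± 0.15 within arrays, with separate ages (exact p = 0.1, 0.125 adjusted over the 20).

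Itgae, the CD103 chain that binds E-cadherin on epithelium, had 271.8, 290.0 and 251.9 at 10 weeks, against 174.6, 193.9 and 184.9 at 5 weeks. Its ages were separate, but the difference of 0.49 ± 0.15 (adjusted p = 0.0354) lost its call whichever pool was left out (adjusted p = 0.0589 to 0.103). Its partner chain Itgb7, which also serves gut homing, had 168.2, 231.7 and 228.9 at 10 weeks, against 204.8, 462.0 and 82.7 at 5 weeks. The 5-week pools of Itgb7 lay on both sides of all the 10-week pools (0.01 ± 0.44).

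The pan-leukocyte chains were highest in 5-week pool 2. Itgb2, the CD18 chain shared by alphaL, alphaM and alphaX, had 909.8, 949.4 and 864.1 at 10 weeks, against 600.3, 1182.9 and 799.5 at 5 weeks (0.12 ± 0.21). Itgal, the lymphocyte chain of LFA-1, had 317.2, 368.5 and 303.9 at 10 weeks, against 286.8, 653.6 and 184.0 at 5 weeks (-0.00 ± 0.36). Neither was called, and pool 2 widened the 5-week spread of both. In the same pool the B cell markers summed to 2881, against 406 and 566 in the other 5-week pools, and the T cell markers to 1864, against 255 and 213. At 10 weeks these sums were 448 to 894 for B cells and 645 to 923 for T cells. Without that pool Itgal differed by 0.46 (adjusted p = 0.149), Itgb2 by 0.37 (0.118) and Itgb7 by 0.54 (0.245), while Itgax stayed called (adjusted p = 0.00248).

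The alpha4 and alpha9 chains, which bind VCAM-1 and related ligands, differed in their calls. Itga9, used by lymphatic vessels and smooth muscle and a receptor for tenascin C, had 183.5, 194.4 and 179.0 at 10 weeks, against 336.1, 314.2 and 313.1 at 5 weeks. Its pools were tight and separate by age, with a difference of -0.70 ± 0.14 (adjusted p = 0.00615), and the call was lost when its probe sets were averaged (-0.53, adjusted p = 0.0501). Itga4, a chain of lymphocytes and monocytes, had 65.3, 161.5 and 68.9 at 10 weeks, against 106.0, 145.2 and 101.9 at 5 weeks, with overlap (-0.26 ± 0.29). Itgb2l had 67.7 to 124.0 at 10 weeks and 46.7 to 61.4 at 5 weeks and was not tested. Of 5 general leukocyte markers, 1 rose and none fell, beside a background of 15.3% of all genes called higher and 18.7% called lower. Of 6 macrophage markers, 2 rose and 3 fell, with a sum of 18401 to 20128 at 10 weeks, against 20497 to 20815 at 5 weeks. Of 2 tested neutrophil markers, S100a8 rose (1.49) and Csf3r was not called (0.38), while S100a9 did not pass the filter. These 3 summed to 641.5 to 878.7 at 10 weeks, against 295.9 to 509.8 at 5 weeks. The part that numbers of these cells have in the Itgax rise or in the Itgam values was not tested.

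**Figure D4:**
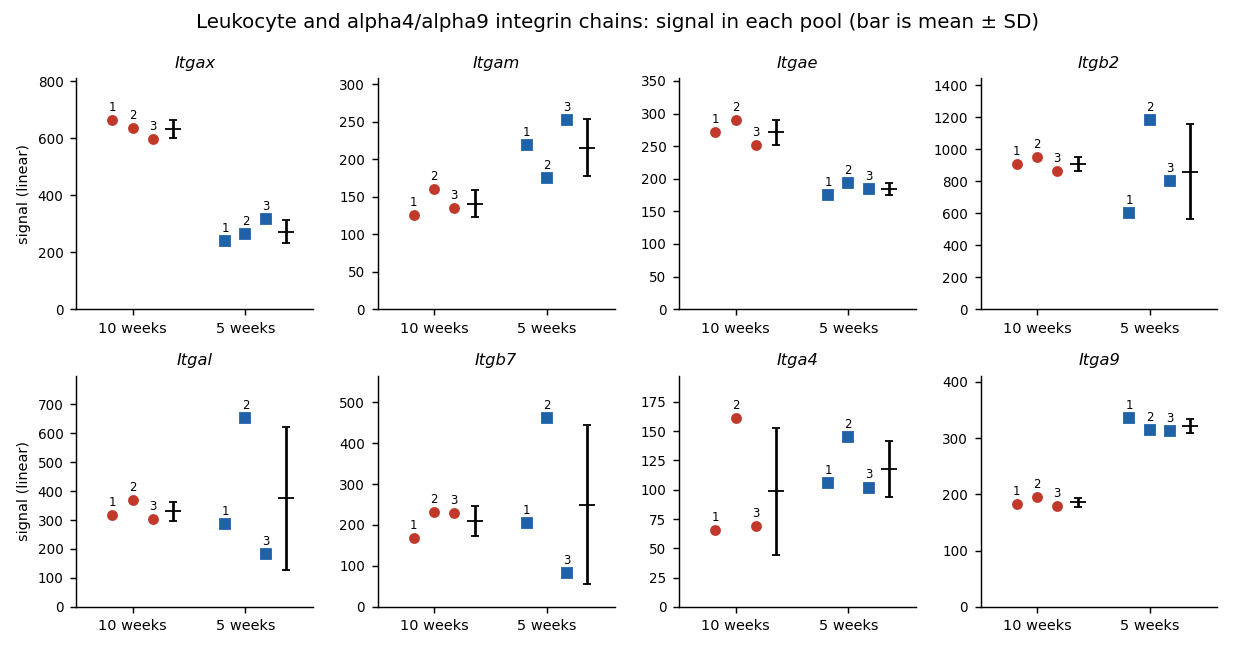
Signal (y axis, linear intensity) of 8 leukocyte, alpha4 and alpha9 chains in each pool, 10 weeks in red and 5 weeks in blue, with pool numbers and mean ± SD (n = 3). Itgax and Itgae are higher in every 10-week pool and Itga9 lower, and 5-week pool 2 is the highest point of Itgb2, Itgal and Itgb7.

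Several genes had more than 1 tested probe set, and 16 genes could be checked in this way. The probe sets had the same sign in 10 genes, which were Itga3, Itga6, Itga1, Itga8, Itga9, Itgae, Lama4, Lamb1, Lamc1 and Lamc3. Every tested probe set was called for Itga6, Itga8 and Lamb1. For Itga1, Itga9, Itgae, Lama4, Lamc1 and Lamc3 only the brightest of 2 was called. The other one overlapped between the ages for Itga1, Itgae and Lamc3. For Lamb1 all 3 probe sets were called lower (-1.14, -0.79 and -0.56), so the brightest gave the smallest fall. They disagreed most for Itga5. Its brightest probe set, with 265.2, 324.1 and 275.6 at 10 weeks against 256.5, 285.8 and 213.4 at 5 weeks, was not called. A dimmer one had 134.7, 124.8 and 128.5 at 10 weeks, against 403.9, 414.6 and 374.9 at 5 weeks, a fall of -1.41 ± 0.14 with no overlap. The direction for Itga5 is therefore not settled by these probe sets. For Itgb5, 2 of 4 probe sets fell (-0.58 and -0.35), while the others gave -0.07 and 0.23 without a call. For Itga3, 1 of 3 rose (1.08). For Itgb1, Itgav, Itgal and Lama5 the probe sets differed in sign and none was called.

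**Figure D5:**
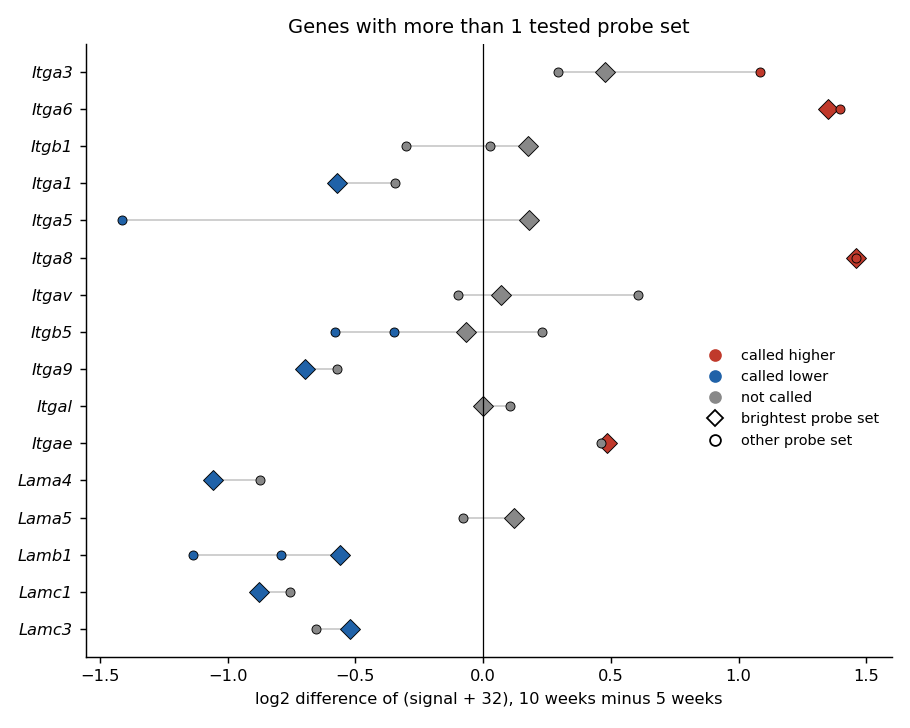
Log2 difference between 10 and 5 weeks (x axis, log2 of signal + 32) for each tested probe set of the 16 genes with more than 1, with diamonds for the brightest and circles for the others. Those of Itga8 coincide near 1.46, and those of Itga5 lie at 0.18 and -1.41.

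A list of basement membrane partners held other proteins of the sheet together with cell surface and intracellular proteins tied to it, such as syndecans, sarcoglycans, dystrophin and plectin. Of 36 tested, 18 fell and 3 rose, which is 58.3% called against a background of 34.1%, with a median of -0.49. The smallest p-values among the falls were those of Col18a1 (-2.25), the collagen from which endostatin is cut, Frem1 (-2.10), a matrix protein of the skin basement membrane, Fbln2 (-1.46), a fibulin that binds laminin, and Col7a1 (-1.55), the collagen of anchoring fibrils. The falls included the sarcoglycans Sgca, Sgcb and Sgce, of the muscle dystrophin complex or its relatives, and the syndecan Sdc1, none of them matrix proteins. Sdc4, a syndecan that cooperates with integrins in adhesion, rose by 1.15, and Npnt, the nephronectin ligand of alpha8, rose by 0.58. The other laminin partners of the sheet, given after their values were seen, went both ways. Nid1 (-0.89) and Nid2 (-0.78), the nidogens, and the collagen IV chains Col4a1 (-0.48) and Col4a2 (-0.54) fell, while the collagen IV chain Col4a3 rose (0.68, adjusted p = 0.0388). Col4a5 differed by 0.42, Col4a6 by -0.06 and Hspg2, the perlecan gene, by -0.40, none of them called, and Col4a4 did not pass the filter. The hemidesmosome partners of alpha6 and beta4, picked out in the same way, were not called: Col17a1 differed by 0.12, Dst by 0.06, Plec by -0.12 and the tetraspanin Cd151 by 0.15. The dystroglycan gene Dag1, a laminin receptor outside the integrins, differed by -0.26 and was not called.

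Of 43 tested proteins that link integrins to the cytoskeleton or sit beside them in the membrane, 16 fell and 11 rose, with a median of -0.18. This is 62.8% called against a background of 34.1% of all genes, of which 18.7% were lower and 15.3% higher. The falls with the smallest adjusted p were Kank2 (-1.51), an adhesion adaptor that binds talin, and Fyn (-1.17), a Src family kinase. Ilk (-0.93), the integrin-linked pseudokinase, and Fermt3 (-1.36), the kindlin of blood cells, came next. The largest fall was that of Itgb1bp2 (-2.66, adjusted p = 0.00852), with 43.8 in 10-week pool 1 and 239.1 and 189.6 in pools 2 and 3. Its 5-week pools spread widely, with 1228.8, 440.0 and 1910.5. The skeletal muscle markers summed to 5443, 40160 and 37543 in the 10-week pools, and to 85770, 49018 and 89534 in the 5-week pools. The part of muscle in the fall of Itgb1bp2 was not tested. The rises with the smallest adjusted p were Cib1 (1.34), a calcium-binding protein first found on the tail of alphaIIb, and Cd82 (1.12), a tetraspanin that associates with integrins. Of 22 tested ligands other than laminins, 11 fell and 5 rose, or 72.7% called against the same background of 34.1%, with a median of -0.44. By adjusted p, Vwf (-2.03), a ligand of platelet integrins made by endothelium, Fn1 (-1.59), the ligand of alpha5, and the collagen genes Col1a1 (-1.05) and Col6a1 (-1.10) led the falls. Mfge8 (1.09), a milk fat globule protein that binds alphav integrins, and Madcam1 (1.39), the ligand of alpha4 with beta7, led the rises.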

How the data were processed

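The authors deposited a linear signal intensity for each probe set on each array. These intensities had been scaled: the 2% trimmed mean came to 500 on every array. No source used here names the software or gives detection calls. Total RNA was labelled with biotinylated UTP, per the labels. Median signals were 156.4 to 172.5, and the number of arrays limits the precision.

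The files list 45101 probe sets, and the 64 controls among them were dropped. Of the rest, 34945 had a single symbol in the platform annotation used here, 932 several and 9160 none. Current symbols came from RefSeq (GRCm38.p6) by gene identifier, with 34741 matches. Signals were raised to at least 1 and put on the log2(signal + 32) scale, where changes of dim genes come out too small. The dimmest 40% of probe sets were left out, leaving 27022. limma 3.58.1 in R 4.3.3 (lmFit, eBayes with a variance trend) compared the ages two-sided on 4 residual degrees of freedom, with no covariate, and p-values were adjusted by Benjamini-Hochberg over all 27022. The steps were tested on simulated data. The chains and lists were chosen with earlier results of these data known. Pool values are given for called chains and their known partners, and from each partner list the 4 genes with the smallest adjusted p in the main direction and 2 in the other are named. Replicate numbers follow accession order and pair no pools. Nothing in the labels says whether pools of an age differ in litter or day, so p-values measure only the spread between these pools. Alternatives changed the offset, filter, normalization, variance model, array weights and the use of several probe sets, and left out each pool. Figures used matplotlib 3.10.9 under Python 3.11.15.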

Additional observations from a re-analysis of the deposited data

How the results depend on the processing

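Under 17 alternative settings the number of integrin and laminin chains called higher at 10 weeks was 6 to 9 (7 as reported) and the number called lower 8 to 12 (11 as reported), each within 1.5 times the reported count. With single pools left out they were 6 to 7 and 8 to 11. With 10-week pool 1, lowest in muscle markers, and 5-week pool 2, highest in lymphocyte markers, both left out, an alternative chosen after seeing the data, 6 were higher and 9 lower. Of the 18 called chains, 13 stayed called under every setting in which they were tested, 6 of them higher and 7 lower, and Itga1, Itga9, Itgae, Lama2 and Lamc3 did not. With the lowest 60% of probe sets left out, only 24 chains were tested. No paired analysis was possible because the labels give the pools no shared numbers.

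Signs turned only for chains that were not called, and the cause was not tested. With averaged probe sets the log2 differences became -0.015 for Itgb1, -0.53 for Itga5 (adjusted p = 0.0458), 0.051 for Itgal and -0.066 for Lama3. Quantile normalization gave -0.0014 for Itgav and 0.050 for Itgal, equal array medians gave 0.025 for Itgal, and an offset of 1 gave 0.014 for Itgal. An offset of 100 gave -0.032 and array weights -0.050 for Itgb7. With single pools left out the differences ran from -0.0036 to 0.39 for Itga2, -0.13 to 0.31 for Itga10, -0.012 to 0.13 for Itgav, -0.37 to 0.46 for Itgal, -0.10 to 0.37 for Itgb2, -0.51 to 0.54 for Itgb7 and -0.090 to 0.37 for Lama5. With both pools left out they were -0.20 for Itga10, -0.071 for Itgav, 0.040 for Itga4, 0.48 for Itgal and -0.040 for Lama5.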
